A study of Mus musculus with 6 samples.

Results

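The genes described are 8 dual-specificity MAP kinase phosphatases, Dusp1, Dusp2, Dusp4, Dusp5, Dusp6, Dusp7, Dusp10 and Dusp16, taken by symbol from a fixed list. All 8 were among the 17872 genes of the deposited count table, and 7 of them were among the 13403 genes with enough counts to be tested. They were measured in 6 RNA-seq libraries of BV2 cells, an immortalised mouse microglial line. Of these libraries, 3 were labelled Tfam knockout, made with CRISPR-Cas9 against Tfam, whose protein coats mitochondrial DNA and is needed to transcribe it, and 3 were labelled wild type (WT). No further treatment was labelled for either group. The labels of all 6 libraries mention puromycin at 2 µg/mL after editing, and they do not say what the WT cells had been given. Nor do they say whether the edited cells were 1 clone or a pool, or whether replicates were separate cultures. The p-values below thus reflect variation among these libraries only, and that variation may be technical.

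MAP kinases are switched on by phosphorylation of a threonine and a tyrosine in their activation loop, and dual-specificity phosphatases switch them off by removing both phosphates. Many of these phosphatase genes are themselves transcribed in response to MAP kinase activity, so that they form a negative feedback loop. In macrophages and microglia they are known for limiting how strongly and for how long ERK, JNK and p38 signal after an inflammatory stimulus. The members differ in their preferred kinase and their place in the cell. Dusp5 is a nuclear and Dusp6 and Dusp7 are cytoplasmic phosphatases selective for ERK. Dusp10 and Dusp16 prefer the stress kinases JNK and p38. Dusp1, Dusp2 and Dusp4 are inducible nuclear enzymes with broader targets.

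Libraries held 13850691 to 20889786 counts in the labelled knockout group and 14642397 to 28418133 in WT. Tfam mRNA was not lower in the labelled knockout libraries: raw counts were 868, 743 and 619 there and 1098, 591 and 524 in WT, or 42.3 ± 1.15 and 38.2 ± 1.01 CPM (mean ± SD, n = 3 each; adjusted p = 0.193, edgeR). Scaled by library totals it was called higher there (adjusted p = 0.0403, edgeR). CPM are counts scaled to a fixed library total after TMM normalisation. Genes of the mitochondrial genome took 1.37% to 1.42% of counts in the labelled knockout libraries and 3.52% to 4.31% in WT. Macrophage markers were abundant in every library, with 9 of 10 listed markers summing to 2993 to 3384 CPM in labelled knockout and 4015 to 4623 CPM in WT libraries, while Itgam is not analysed here. Summed levels were at most 1.81 CPM for neuronal and 1.53 CPM for astrocyte markers in any library. They were 11.9 to 14.2 CPM in labelled knockout and 24.4 to 25.5 CPM in WT libraries for oligodendrocyte markers, mostly Mbp, which is also expressed outside oligodendrocytes. Endothelial markers summed to 7.18 to 9.59 CPM in labelled knockout and 11.5 to 12.1 CPM in WT libraries, a difference that lay in Kdr (3.65 CPM in labelled knockout and 8.11 CPM in WT libraries), while Pecam1, Cdh5 and Tek did not pass. The 1 fibroblast marker in the table had 0.236 to 0.574 CPM in labelled knockout and 1.42 to 2.55 CPM in WT libraries. The part of other cell types in the results was not tested, and in bulk RNA fewer expressing cells and less RNA per cell cannot be told apart.

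Promoter windows from RefSeq on GRCm38.p6 were found for 7 of the 8 members (Dusp4 had none), whereas the reads were counted on GRCm39. The 250 bases before the start are shown for the 3 clearly lower members Dusp1, Dusp2 and Dusp6 and for Dusp5, which was higher. Dusp5 was picked because, like Dusp1, it holds sites known from immediate-early genes. Dusp16, also higher, held none of the marked letters and is not shown. Capitals mark TGACGTCA (the cyclic AMP response element) or its first 7 letters, ACGTG (the core of the hypoxia response element, on either strand), and CArG boxes, the sites of serum response factor.
Dusp1, chr17:26508473-26508722, minus strand: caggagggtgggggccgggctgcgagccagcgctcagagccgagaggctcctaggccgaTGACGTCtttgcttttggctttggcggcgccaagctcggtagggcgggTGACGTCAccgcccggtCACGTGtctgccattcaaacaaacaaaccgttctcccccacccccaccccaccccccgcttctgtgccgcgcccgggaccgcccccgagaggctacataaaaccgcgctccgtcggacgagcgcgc
Dusp2, chr2:127335909-127336158, plus strand: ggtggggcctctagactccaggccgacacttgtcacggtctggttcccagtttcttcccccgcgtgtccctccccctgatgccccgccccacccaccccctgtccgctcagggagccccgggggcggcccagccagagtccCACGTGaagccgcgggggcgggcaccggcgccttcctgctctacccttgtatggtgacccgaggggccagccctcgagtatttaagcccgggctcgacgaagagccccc
Dusp6, chr10:99262981-99263230, plus strand: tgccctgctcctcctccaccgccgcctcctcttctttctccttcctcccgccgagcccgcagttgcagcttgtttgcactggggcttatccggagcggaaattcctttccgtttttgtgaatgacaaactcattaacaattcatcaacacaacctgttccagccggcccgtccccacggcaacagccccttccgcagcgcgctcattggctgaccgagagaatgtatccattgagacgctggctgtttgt
Dusp5, chr19:53528895-53529144, plus strand: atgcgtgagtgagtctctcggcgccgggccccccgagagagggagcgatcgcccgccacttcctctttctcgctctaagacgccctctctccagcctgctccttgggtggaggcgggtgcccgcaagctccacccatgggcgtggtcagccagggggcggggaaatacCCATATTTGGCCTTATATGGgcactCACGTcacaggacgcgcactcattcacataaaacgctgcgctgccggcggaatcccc

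Dusp1 held TGACGTCA at -143 to -136 from the start, a second copy of its first 7 letters at -191 to -185, and the palindrome CACGTG at -126 to -121. Dusp2 held CACGTG at -109 to -104. Dusp5 held a pair of adjacent CArG boxes, CCATATTTGG at -82 to -73 and CCTTATATGG at -72 to -63, and one ACGTG match on the opposite strand. Among all 32851 windows of 300 bases, searched on both strands, TGACGTCA occurred in 1.79%, a CArG box in 1.63% and ACGTG in 19.6%. The 7 letters TGACGTC occurred in 3.21% of windows. Neither TGANTCA (the AP-1 site, 7.81% of windows) nor CCGGAAG (an ETS site, 8.86%) was found in a member's window. A loose form of the NF-kB site was found in 6 of the 7 members' windows and in 50.8% of all windows. The CArG and 7-letter searches were added after the sequences had been seen. A match describes letters and is not evidence of binding.

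All 7 tested members differed between the groups, and they did so in opposite directions. Dusp4, Dusp5 and Dusp16 rose and Dusp1, Dusp2, Dusp6 and Dusp7 fell in the labelled knockout libraries at an adjusted p below 0.05 (edgeR's quasi-likelihood test, Benjamini-Hochberg adjustment over all tested genes). Of all tested genes 44.2% were called, 21.3% higher and 22.9% lower, and the members were listed with results of these data known, so the count is not a test of the family. Groups of 3 did not overlap in CPM for any of the 7 tested members, as for 52.9% of all tested genes. Higher genes made up 48.2% of all calls, and 61.8% with library totals in place of TMM, a scaling that shifted the median gene by 0.10 in log2. Every tested member kept its direction under that scaling. Fold changes were moderate. Tested against a change of at least 1.5-fold with glmTreat, Dusp6 alone passed (adjusted p = 0.0101), while 1094 of all genes did.

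**Figure D1:**
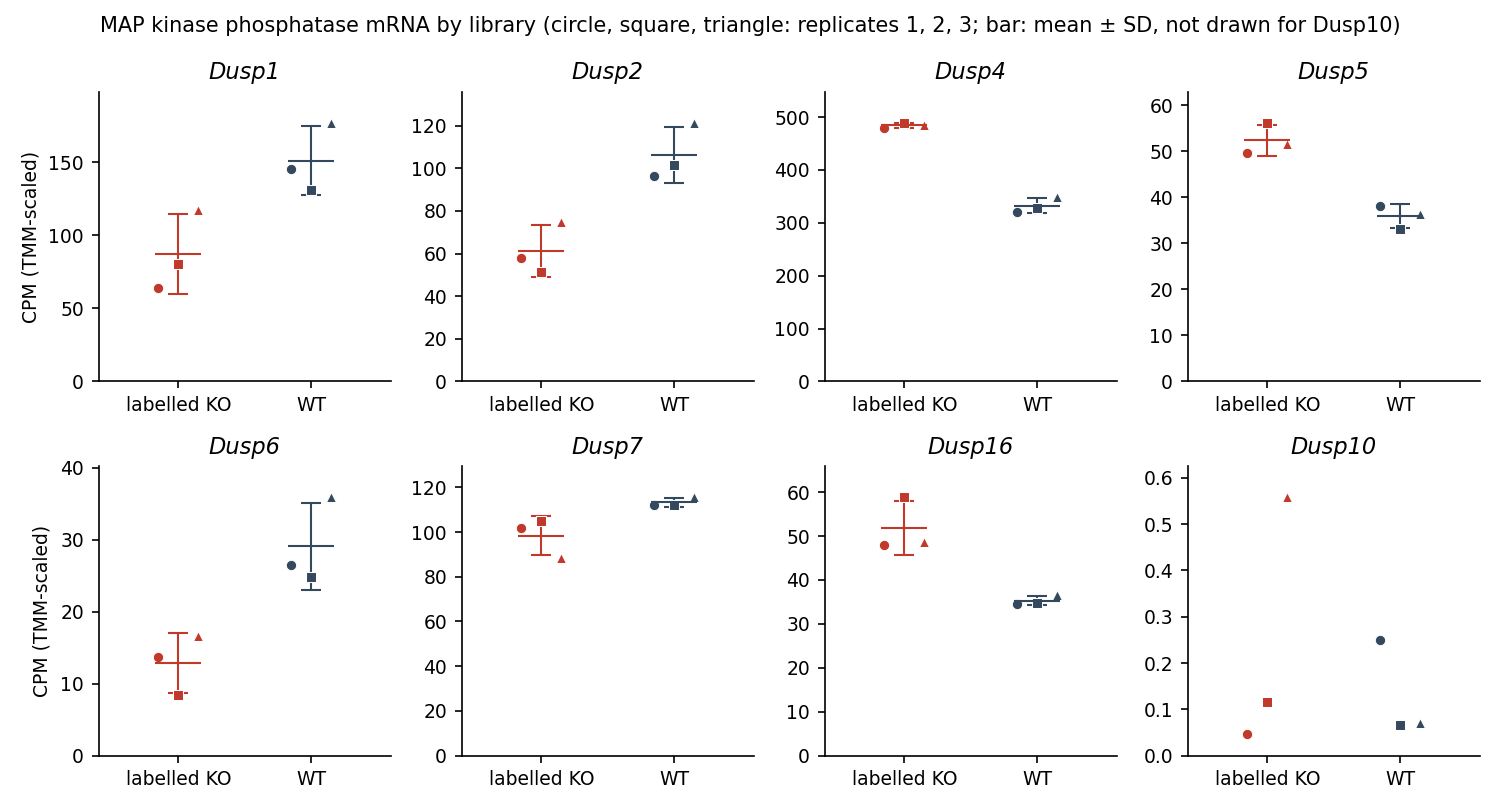
CPM of each member in the 3 labelled knockout and the 3 WT libraries, each panel with its own axis starting at 0, with points for libraries and bars for mean ± SD. No point of one group lies within the other group's range in the panels of the 7 tested members, and Dusp10 is at most 0.558 CPM in any library.

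Among the inducible nuclear members with broad targets, Dusp1 and Dusp2 fell and Dusp4 rose. Dusp1, an immediate-early gene product that inactivates p38, JNK and ERK, had 64.0, 80.6 and 117 CPM in the labelled knockout libraries, against 145, 131 and 177 CPM in WT. The highest labelled knockout library stayed just below the lowest WT library. Dusp1 fell by 0.80 ± 0.154 on the log2 scale (SE; adjusted p = 0.000464, edgeR). Its exons overlap those of Ergic1, on the opposite strand, by 11 bases in GENCODE M21, and the counts do not separate the strands.

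Dusp2, known as a phosphatase induced in activated immune cells, had 57.8, 51.4 and 75.0 CPM in labelled knockout libraries, against 96.2, 102 and 121 CPM in WT. Its fall of 0.79 ± 0.116 on the log2 scale had nearly the size of that of Dusp1 and an adjusted p of 3.14e-05 (edgeR). Dusp4, a nuclear phosphatase of ERK and JNK, had 480, 489 and 485 CPM in labelled knockout libraries, against 321, 327 and 348 CPM in WT. The 3 labelled knockout libraries were nearly level with each other and all above WT. Dusp4 rose 1.46-fold (log2 fold change 0.54 ± 0.0736, adjusted p = 1.32e-05, edgeR).

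The ERK-selective members did not move as one. Dusp6, the cytoplasmic ERK phosphatase whose mRNA is widely used as a readout of ERK activity, had 13.7, 8.39 and 16.6 CPM in labelled knockout libraries, against 26.5, 24.8 and 35.9 CPM in WT. It fell by 1.17 ± 0.186 on the log2 scale, to 0.444 of the WT level (adjusted p = 7.09e-05, edgeR). Of the 7 tested members it had the largest change, and 93.8% of tested genes had an absolute log2 fold change no larger.

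Dusp7, the close relative of Dusp6, had 102, 105 and 88.5 CPM in labelled knockout libraries, against 112, 112 and 116 CPM in WT. Its fall of 0.20 ± 0.0774 on the log2 scale passed narrowly (adjusted p = 0.0433, edgeR). The call was lost in 14 of 19 alternatives, among them DESeq2 (adjusted p = 0.0542), library totals (adjusted p = 0.336) and the omission of labelled knockout replicate 3 (log2 fold change -0.13, adjusted p = 0.270, edgeR) or of any WT library (adjusted p up to 0.143). Outside glmTreat its adjusted p ran from 0.0201 to 0.358. Dusp5, which anchors inactive ERK in the nucleus, went the other way, with 49.6, 56.1 and 51.5 CPM in labelled knockout libraries, against 38.1, 33.1 and 36.4 CPM in WT. It rose 1.46-fold (log2 fold change 0.54 ± 0.0926, adjusted p = 0.000145, edgeR). An unnamed gene model overlaps Dusp5 on the opposite strand by up to 547 bases of an exon in GENCODE M21, and without strand its reads cannot be told from those of Dusp5.

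Of the stress kinase-selective members only Dusp16 could be tested, and it rose. Dusp16, a phosphatase of JNK and p38, had 48.0, 58.8 and 48.5 CPM in labelled knockout libraries, against 34.6, 34.8 and 36.5 CPM in WT. Its log2 fold change was 0.55 ± 0.0976 (adjusted p = 0.000197, edgeR), close in size to those of Dusp4 and Dusp5. Dusp10, the other phosphatase of this class, had raw counts of 1, 2 and 8 in labelled knockout libraries and 7, 1 and 1 in WT. At this depth no difference in Dusp10 could be measured. Dusp8, another stress kinase-selective phosphatase outside the list of members, averaged 5.48 ± 1.79 CPM in labelled knockout and 4.06 ± 0.778 CPM in WT libraries and did not pass (log2 fold change 0.44 ± 0.247, adjusted p = 0.158, edgeR). It passed only without labelled knockout replicate 1 (adjusted p = 0.0492, edgeR), and over the alternatives other than glmTreat its adjusted p reached 0.679.

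**Figure D2:**
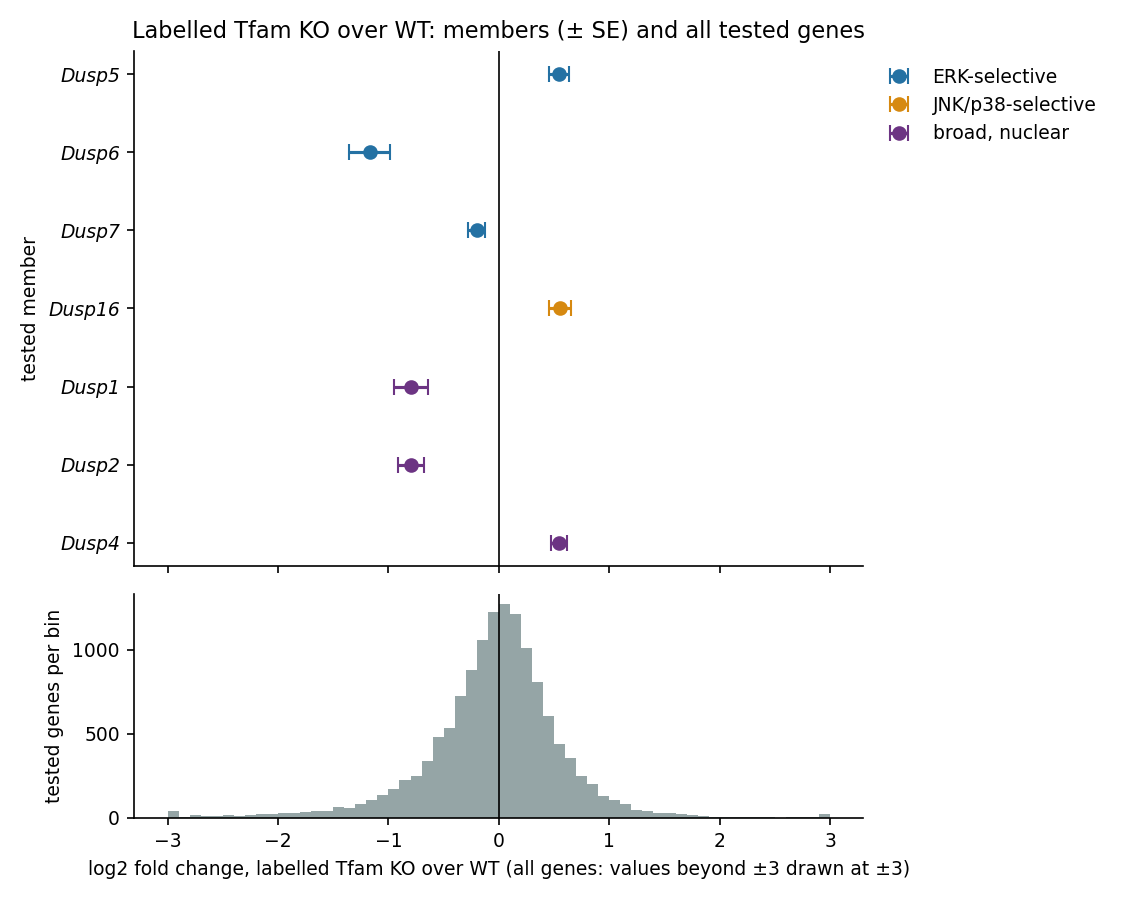
Log2 fold change of each tested member with its SE (top), coloured by preferred kinase, above the number of tested genes per 0.1 of log2 fold change (bottom). The members fall on both sides of 0, from -1.17 for Dusp6 to 0.55 for Dusp16, and both the ERK-selective and the broad nuclear class hold members on each side.

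The ERK-selective and stress kinase-selective members were set against each other within each library. The mean log2(CPM + 1) of Dusp5, Dusp6 and Dusp7 minus that of Dusp10 and Dusp16 was 2.57, 2.24 and 2.31 in labelled knockout libraries and 2.89, 2.91 and 3.10 in WT. The groups did not overlap, and the difference was -0.60 between the group means, with no test because it is a score over chosen members. It depended on the members counted: without Dusp6 it was -0.16, without Dusp5 it was -0.999, and without the barely detected Dusp10 it was -0.80. With Dusp1 counted among the stress kinase phosphatases, as a p38 and JNK phosphatase, it was -0.21. Within the ERK-selective class the split was wide. The log2 ratio of Dusp5 over Dusp6 per kilobase was 2.19, 3.08 and 1.97 in labelled knockout libraries and 0.87, 0.76 and 0.36 in WT. The broad nuclear class was split as well, since Dusp4 over Dusp1 on that scale was 3.18, 2.87 and 2.32 in labelled knockout libraries and 1.42, 1.59 and 1.25 in WT.

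Levels between members were compared as CPM per kilobase of annotated exon. The order of members depends on the length used. Dusp1 has 3311 bases of annotated exon but 1990 in its coding transcript, and Dusp2 has 2003 and 1617. Dusp16 has 7798 and 5104, and Dusp6 3132 and 2796. Dusp4 led in both groups, with 177 ± 1.61 in labelled knockout and 121 ± 5.12 in WT libraries (CPM per kilobase, mean ± SD, n = 3 each). In labelled knockout libraries Dusp2 (30.7 ± 6.09), Dusp7 (29.3 ± 2.60) and Dusp1 (26.4 ± 8.24) followed and overlapped each other, then Dusp5 (21.2 ± 1.35), which overlapped Dusp1. In WT libraries Dusp2 (53.1 ± 6.56) and Dusp1 (45.7 ± 7.07) overlapped, and Dusp7 (33.7 ± 0.595) and Dusp5 (14.5 ± 1.04) came after them. Per kilobase, Dusp16 and Dusp6 changed places. Dusp16 stood at 6.64 ± 0.783 and Dusp6 at 4.12 ± 1.33 in labelled knockout libraries. In WT libraries Dusp16 stood at 4.53 ± 0.135 and Dusp6 at 9.27 ± 1.91. In CPM not divided by length, Dusp16 was above Dusp6 in both groups (51.8 and 12.9 in labelled knockout, 35.3 and 29.0 in WT libraries). Dusp10 was last in both.

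Summed over the 8 members, the level per kilobase was 284, 293 and 309 in labelled knockout libraries and 271, 269 and 306 in WT, so the groups overlapped. What differed was the make-up. Dusp4 supplied 60.0% ± 2.32 of that sum in labelled knockout and 43.0% ± 1.48 in WT libraries (SD, n = 3 each). Dusp1 supplied 8.87% ± 2.39 in labelled knockout and 16.1% ± 1.36 in WT libraries. Dusp2 supplied 10.4% ± 1.69 in labelled knockout and 18.8% ± 1.02 in WT libraries. Dusp6 supplied 1.39% ± 0.422 in labelled knockout and 3.27% ± 0.419 in WT libraries. These sums and shares use exon lengths of another annotation than the one reads were counted on, and their size and their difference between the groups depend on those lengths.

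**Figure D3:**
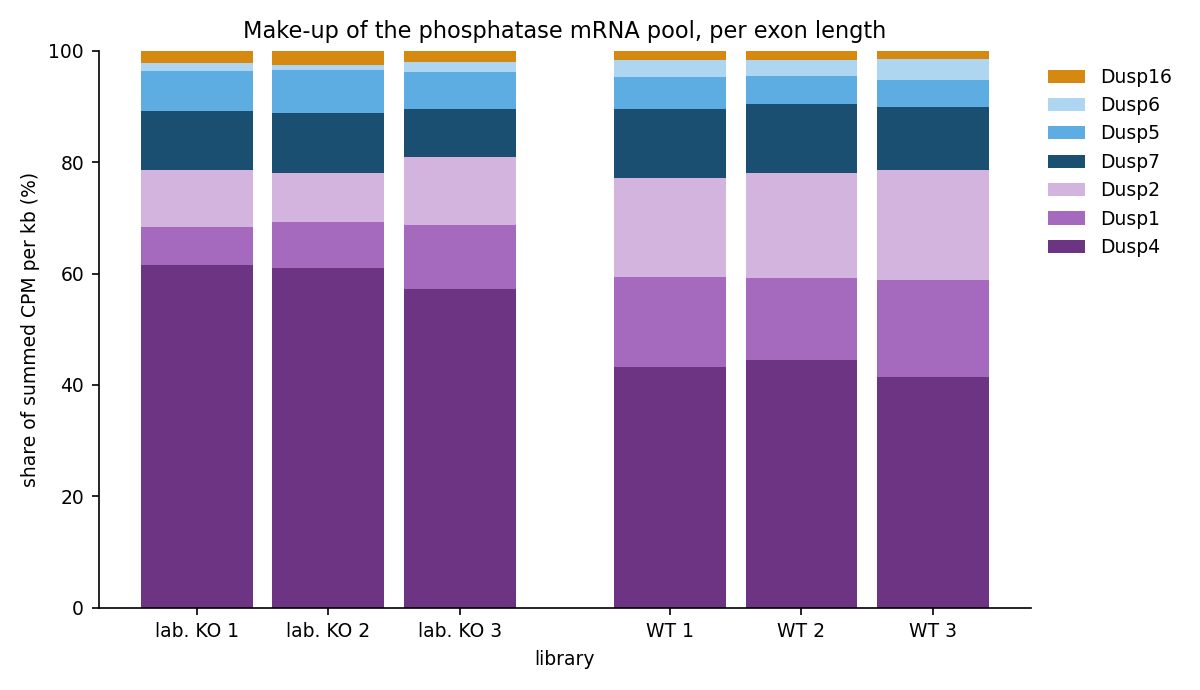
Share of each member in the summed CPM per kilobase, 1 bar per library, with the 3 labelled knockout libraries on the left and the 3 WT libraries on the right. Dusp4 makes up 57.3% to 61.6% of the bar in labelled knockout and 41.5% to 44.4% in WT libraries, while Dusp1, Dusp2 and Dusp6 take smaller shares in labelled knockout libraries; Dusp10 is too small to draw.

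Dusp1, Dusp2 and Dusp6 also varied most among replicates on the log2 scale. In both groups replicate 3 was the highest library for these 3 members, and for 8.39% of all tested genes. The same held for 8 of 10 immediate-early response genes picked by hand from the pathway lists. These were Fos, Fosl1, Jun, Junb, Egr2, Ier2, Ier3 and Zfp36, but not Egr3 or Myc. Other genes of those lists were left out, among them Phlda1 and Ccnd1, which were not highest in replicate 3 of both groups. The share among hand-picked genes is not a test. The replicate numbers are not labelled as a shared batch. Over deviations from the group means in the 6 libraries, Pearson's r was 0.99 between Dusp1 and Jun and 0.98 between Dusp1 and Fos. It was 0.90 between Dusp2 and Dusp6, 0.78 between Dusp1 and Dusp2, 0.53 between Dusp1 and Dusp6, and 0.64 between Dusp5 and Dusp16. Dusp6 had 0.52 with Jun and -0.67 with Dusp16, and Dusp7 had -0.94 with Ier2 and 0.97 with Myc. The pairs named were picked from many. These values describe 6 libraries that share cells, depth and handling. Fos, the AP-1 subunit, did not pass in the main test: its log2 fold change was -0.30 ± 0.239 (adjusted p = 0.327, edgeR), and -0.81 without labelled knockout replicate 3 (adjusted p = 0.000644, edgeR). With the replicate number as a block Fos passed as well (-0.38, adjusted p = 0.0451, edgeR), and over the other alternatives apart from glmTreat its adjusted p reached 0.860. Dusp1, Dusp2 and Dusp6 passed without any single library, with log2 fold changes from -1.06 to -0.61, from -0.96 to -0.68 and from -1.37 to -0.94. The part of the common variation among replicates in these calls was not tested.

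**Figure D4:**
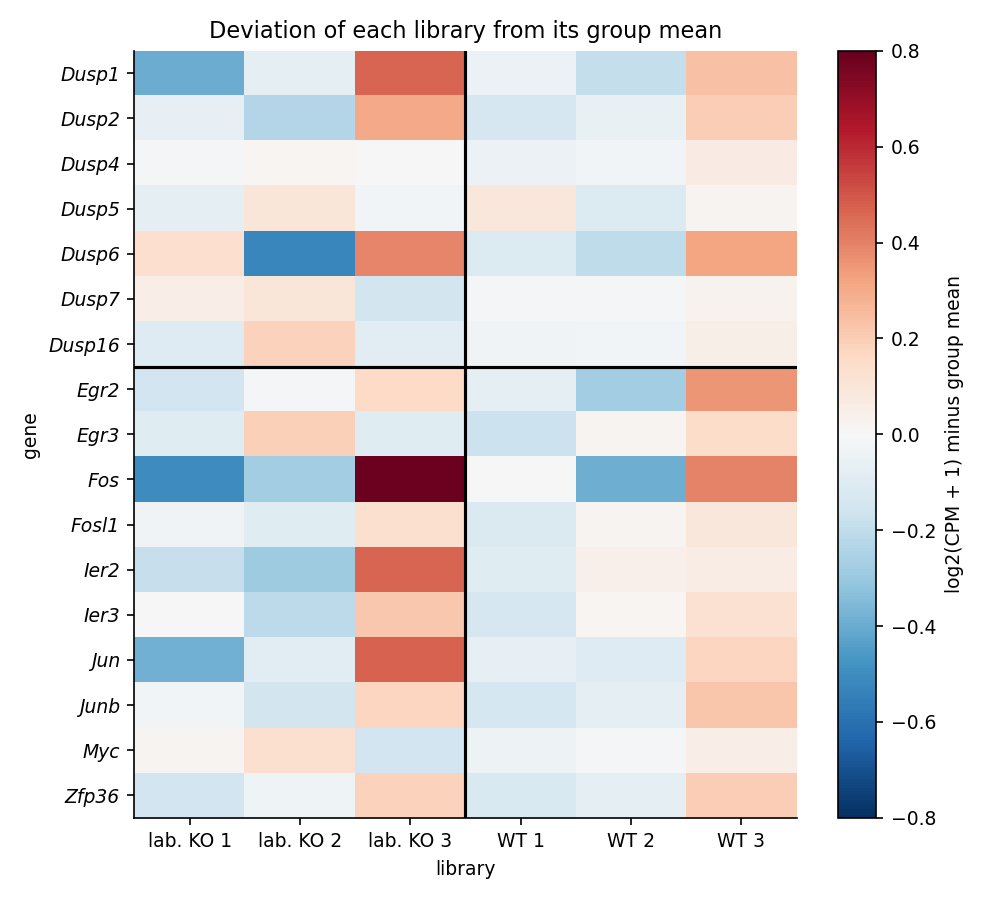
Deviation of log2(CPM + 1) from the group mean, in the labelled knockout (lab. KO, left) and WT libraries (right). The 7 tested members are above the line and 10 hand-picked immediate-early response genes below it. Dusp1, Dusp2 and Dusp6 are above their mean in replicate 3 of both groups, like Fos and Jun, while Dusp4 stays within 0.07 of its mean in every library.

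The members' transcripts differ in known marks of short-lived mRNA. ATTTA, the core of AU-rich elements that speed mRNA decay, occurred 4 times in the 3' untranslated region of both Dusp1 and Dusp2, or 5.80 and 6.88 times per kilobase, in the annotated coding transcript of GENCODE M21 used for each gene. Of 11329 tested genes with such a region, 4.86% had a density at least that of Dusp1 and 3.12% at least that of Dusp2, and the median gene had 1.20 per kilobase. By number alone 25.95% of these genes had at least 4. Dusp10 had 2.70, Dusp4 1.80, Dusp16 1.24, Dusp5 0.902 and Dusp6 0.841 per kilobase, and Dusp7 had no ATTTA. High density was therefore shared by Dusp1 and Dusp2 but not by Dusp6. Zfp36 encodes a protein that binds AU-rich elements and promotes decay. It had 130 ± 15.8 CPM in labelled knockout, against 207 ± 25.5 CPM in WT libraries (log2 fold change -0.67 ± 0.0963, adjusted p = 2.58e-05, edgeR). Its part in the members' levels was not tested. The search for ATTTA was chosen after the members' values were known, and mRNA decay was not measured. Most members are compact genes: the transcripts of Dusp2, Dusp1, Dusp6 and Dusp7 span 2218, 2930, 4258 and 7093 bases of genome, and those of Dusp4 and Dusp5, which rose, 12598 and 13323 bases, against a median of 23937 bases for the same 11329 genes. Dusp10 and Dusp16 span 41256 and 77153 bases.

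Genes around the members in the MAP kinase network were called about as often as other genes. Of 102 tested genes in 10 lists, 15 rose and 32 fell, or 46.1% called beside 44.2% of all tested genes. Their median log2 fold change was -0.07, and that of all tested genes 0.00. With library totals 25 of them were called higher and 24 lower. Among the other 13 tested genes of the dual-specificity phosphatase family, most do not act mainly on MAP kinases. Of these 13, 2 passed, or 15.4% beside 44.2% of all tested genes. Dusp22, an atypical phosphatase known to restrain T-cell receptor signalling, rose (log2 fold change 0.40) and Dusp23 fell (-0.71). Some genes of that list had few reads, with means down to 0.905 CPM, so that a change in them was harder to call. With library totals 3 genes of that list were higher. Among 6 tested phosphatases of other families that act on MAP kinase pathways, Ppm1b (0.37), Ppm1a (0.23) and the PP2A catalytic subunit Ppp2cb (0.24) rose. The call of Ppp2cb was lost without labelled knockout replicate 2 or 3 or WT replicate 3 (adjusted p up to 0.138, edgeR), and that of Ppm1a with length and GC offsets (adjusted p = 0.0800, edgeR).

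Of 10 tested MAP kinases, Mapk3, which encodes ERK1, fell (log2 fold change -0.47), as did Mapk14, which encodes p38 alpha (-0.49), while Mapk7, which encodes ERK5, rose (0.28). With library totals 4 MAP kinases were higher. Mapk8, which encodes JNK1, had 30.2 ± 3.15 CPM in labelled knockout and 33.9 ± 1.78 CPM in WT libraries and did not pass, except with length and GC offsets (adjusted p = 0.0424, edgeR). Of 6 tested MAP kinase kinases, Map2k1 (-0.40), Map2k6 (-0.30) and Map2k4 (-0.26), which encode MEK1, MKK6 and MKK4, fell and none rose. Library totals left only Map2k1 called lower and 2 others higher. The calls of Map2k6 and Map2k4 were also lost without WT replicate 1 or 2 (adjusted p up to 0.0635, edgeR), and that of Map2k6 without WT replicate 3 or labelled knockout replicate 1 (adjusted p up to 0.0716).

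Further upstream, 5 of 14 genes of the Ras and RAF input to ERK were called. The scaffold Ksr1 (0.64) and the exchange factor Sos1 (0.55) rose, and the adaptor Grb2 (-0.47), the GTPase Nras (-0.22) and the kinase Map3k8 (-0.48), which drives ERK downstream of Toll-like receptors, fell. The call of Map3k8 was lost without replicate 1 of either group (adjusted p up to 0.128, edgeR) and with the replicate block (adjusted p = 0.0530, edgeR). That of Nras was lost without WT replicate 1 or labelled knockout replicate 3 (adjusted p up to 0.0939, edgeR). Neither passed with library totals, and 1 gene of the list was lower there, as it was without WT replicate 1. Of 14 tested MAP3 kinases of the stress pathways, 3 rose and 5 fell. Map3k9 (-1.01), Map3k1 (-0.99) and Map3k12 (-0.97) had the largest falls, and Map3k5, which encodes the redox-sensitive kinase ASK1, rose (0.81).

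Genes known to report ERK activity were called about as often as other genes, and more of the calls were lower than higher. In the list of ERK feedback inhibitors, Spry4 (-0.41), Spred2 (-0.38) and Spry2 (-0.37) fell out of 7 tested and none rose. Spred2 alone passed with library totals. The call of Spry2 was lost without any 1 library other than WT replicate 1 (adjusted p up to 0.137, edgeR), and that of Spry4 without labelled knockout replicate 2, WT replicate 1 or WT replicate 3 (adjusted p up to 0.0838, edgeR). Of 13 tested ERK output genes, 6 fell, 1 rose and 6 did not pass, and with library totals 5 were lower. Ier2 fell to 155 ± 46.5 CPM in labelled knockout, against 463 ± 27.2 CPM in WT libraries (-1.58), with Egr3 (-1.11), Egr2 (-1.06), the ETS factors Etv1 (-0.63) and Etv5 (-0.34), and Fosl1 (-0.26, a call lost in 10 of 19 alternatives, among them the omission of labelled knockout replicate 1 or 2 or WT replicate 2 or 3). Myc, the growth-promoting transcription factor, rose to 16.6 ± 1.69 CPM in labelled knockout, against 5.01 ± 0.206 CPM in WT libraries (1.73). The list's median was -0.30.

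Kinases activated by MAP kinases, ERK among them, and the scaffolds and targets of JNK and p38 were called in both directions. Of 10 kinases activated by MAP kinases, 3 rose and 4 fell. Mapkapk2, which encodes MK2, the p38-activated kinase that stabilises cytokine mRNAs, rose to 1296 ± 65.9 CPM in labelled knockout, against 747 ± 10.0 CPM in WT libraries (0.79), and Mapkapk5 rose too (0.82). The call of Mapkapk5 was lost without labelled knockout replicate 2 (adjusted p = 0.0569, edgeR), when 1 gene of the list was higher. Rps6ka2 (-0.71) and Rps6ka1 (-0.65), which encode ERK-activated ribosomal S6 kinases, fell. Among 9 tested JNK and p38 scaffolds and targets, Jun (-1.19), Zfp36, the scaffold Mapk8ip3 (-0.52), Junb (-0.47) and Jund (-0.32) fell, and Jund lost its call without WT replicate 3 (adjusted p = 0.0739, edgeR). Ddit3, which encodes the stress factor CHOP, was the 1 that rose (1.48). All calls in these lists are from edgeR at an adjusted p below 0.05.

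**Figure D5:**
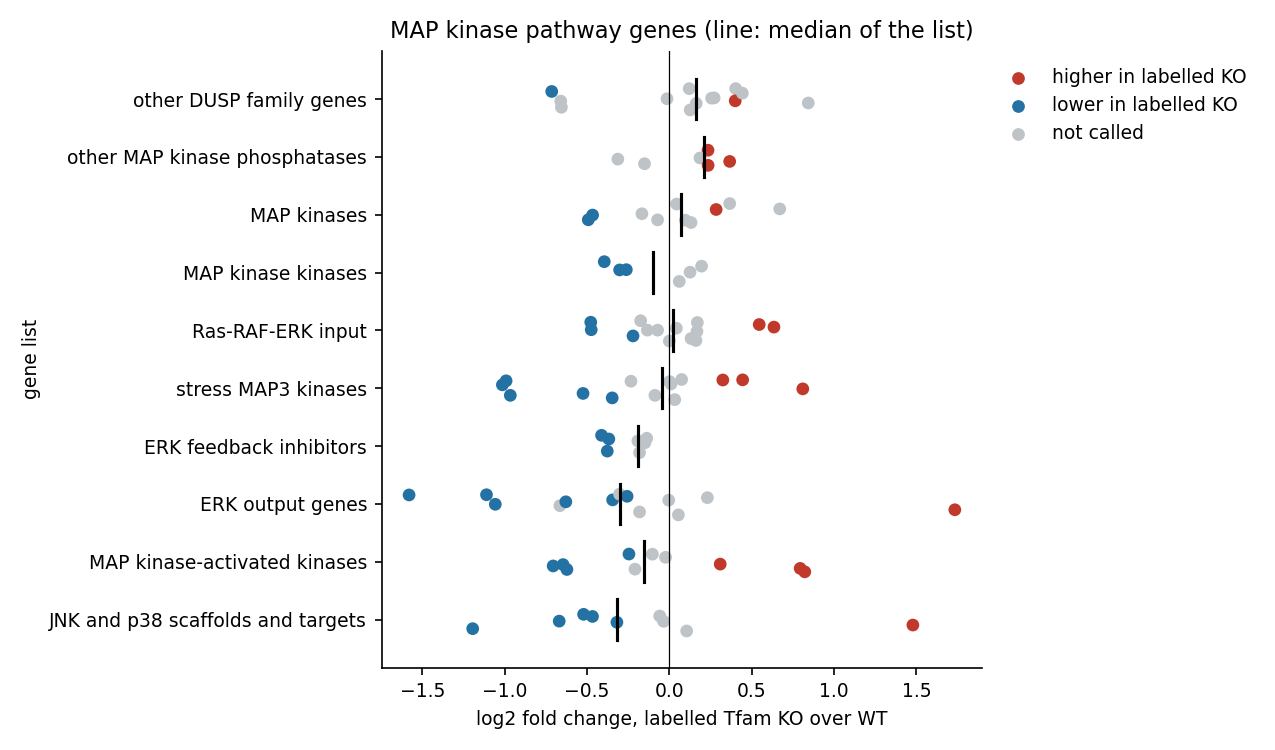
Log2 fold change of every tested gene in 10 lists of MAP kinase pathway genes, 1 point per gene, coloured by call, with the median of each list as a line. The medians run from -0.32 for JNK and p38 scaffolds and targets to 0.21 for other phosphatases of MAP kinases, and Myc, Ddit3 and Ier2 lie farthest from 0.

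The gene most like each called member over the 6 libraries, by Pearson's r of log2 CPM, was Trpm2 for Dusp1 (r = 0.996), Kyat1 for Dusp2 (0.995), Tk2 for Dusp6 (0.995), Adcy3 for Dusp7 (0.995), Acsl5 for Dusp4 (0.999), Appbp2 for Dusp5 (0.999) and Hivep3 for Dusp16 (0.999). Each value is the highest among 11430 candidate genes, over only 6 libraries in 2 groups. Of these candidates, 49 exceeded 0.95 with Dusp1 and 807 did so with Dusp5. Dusp7 had 61 such genes, Dusp6 114, Dusp2 183, Dusp16 428 and Dusp4 758. Between the groups, Trpm2 lost its call without labelled knockout replicate 1 or WT replicate 3 (adjusted p up to 0.0844, edgeR). Appbp2 lost it without any 1 library other than replicate 1 of either group (adjusted p up to 0.0795, edgeR), and Adcy3 was not called.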

How the data were processed

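Per the submitters' processing notes, the authors used bcl2fastq 2.17, HISAT2 2.1.0, SAMtools 1.9 and featureCounts 2.0.0 with build GRCm39. Per the labels' protocols, libraries were made from poly(A) RNA with the NEBNext Ultra kit, which does not mark strand. The deposited count table holds whole-number counts per gene, not normalized. The authors' second table holds log2 values, which from the values equal log2 of the count scaled to a common library total plus 8, and it was used for 3 alternatives.

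The test was edgeR 4.0.16 (R 4.3.3), with filterByExpr, TMM, glmQLFit and glmQLFTest and no covariates, adjusted over 13403 genes, at an adjusted p below 0.05. Dusp10 did not pass the filter. Each SE is the absolute log2 fold change divided by the root of the F statistic. The edgeR step was tested on simulated data. No replicates agreed within sampling noise (chi-square per degree of freedom of at least 5.74). Exon lengths, GC content and 3' untranslated regions came from GENCODE M21 on GRCm38, matched by symbol for 99.5% of tested genes, and promoters from RefSeq on GRCm38.p6.

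Members and lists were chosen with earlier results of these data known. All 8 members are named, with up to 4 called genes of at least 1 CPM per pathway list that changed most, optionally others where 5 or fewer of a list were called one way, and the gene most like each called member. Genes named outside that rule (Fos, Mapk8, Dusp8, Etv1, Etv5, Fosl1, Ier3, Phlda1, Ccnd1, and Mbp, Pecam1, Cdh5, Tek and Kdr among the markers) were chosen after their values were seen. Alternatives were DESeq2 1.42.0, limma-voom (limma 3.58.1), other scalings, filters and units, the replicate number as a block, glmTreat, length and GC offsets, and each library left out. Protein sequences were not used here.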

Additional observations from a re-analysis of the deposited data

How the results depend on the processing

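The directions of all 7 tested members held in all 19 alternatives. The calls of Dusp1, Dusp2, Dusp4, Dusp5 and Dusp16 held in the 18 other than glmTreat at 1.5-fold, and that of Dusp6 in all 19. With glmTreat, 0 members were called higher and 1 lower, with 1094 genes in all and 3 higher and 7 lower genes in the pathway lists. The log2 fold changes are then those of the main test, -0.80 for Dusp1, -0.79 for Dusp2, 0.54 for Dusp4 and Dusp5, 0.55 for Dusp16 and -0.20 for Dusp7, none of them passing (adjusted p of at least 0.121). This test asks for a larger change, so fewer calls follow from its construction. Dusp7 did not pass with DESeq2 (-0.20), library totals (-0.10), no mitochondrial genome genes (-0.19), no filter (-0.19), length and GC offsets (-0.11) or the authors' log2 table (-0.11 as deposited, unfiltered, or with 1 in place of 8). Its values with 1 library left out ran from -0.25 to -0.13. The cause was not tested. Pathway list genes called higher numbered 25 with library totals and in each form of the authors' table, which is scaled by totals too. Those called lower numbered 32 in the main test, 24 with library totals and 23 or 24 in the authors' table. The difference between ERK-selective and stress kinase-selective members moved to -0.21 with Dusp1 in the stress class, -0.80 without Dusp10, -0.999 without Dusp5 and -0.16 without Dusp6, the last 3 chosen after seeing the data.

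With the replicate number as a block, 5255 genes were called in place of 5926, and Dusp7 was lost (-0.21, adjusted p = 0.0811, edgeR). Over all tested genes, same-numbered libraries did not deviate together (r = -0.17, -0.18 and 0.05). Pairs with different numbers had r from -0.04 to 0.21, the highest for labelled knockout replicate 1 and WT replicate 2. These values are over all genes, and a batch shared by only part of the genes was not tested. Dusp1, Dusp2 and Dusp6 were highest in replicate 3 of both groups. Depth limits Dusp10, with at most 8 counts in a library.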
